A study of Mus musculus with 3647 samples.

Results

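The 10 genes described here are immediate early genes, chosen by name with earlier results of these data known: Fos, Fosb, Fosl2, Jun, Junb, Egr1, Arc, Npas4, Nr4a1 and Ier2. All 10 were among the 23420 genes listed in each of the 3 deposited expression tables. The study profiled RNA of mouse nuclei, each sorted alone into a well of a 96-well plate, and of cells collected by Patch-seq, in which the contents of a recorded cell are drawn into the pipette. Each of the 3647 labelled samples is a single nucleus or cell, and expression values were given for 2653.

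Most nuclei came from the thalamic reticular nucleus (TRN), a sheet of inhibitory GABAergic cells around the dorsal thalamus, which is their target. TRN nuclei were sorted either on a violet signal together with the neuronal protein NeuN (8 plates) or on the violet signal alone (13 plate names). Another 240 nuclei, from tissue next to the TRN (thalamus and globus pallidus), were also sorted on the violet signal alone (4 plates). Nuclei sorted on the violet signal and GFP came from hippocampus (440, 7 plates), M2 cortex (3 plates), somatosensory cortex (2 plates) and striatum (71, 1 plate), and the submitters' design describes them as positive for Pvalb. A last hippocampal set of 43 nuclei, from a plate shared with the GFP-sorted ones, carried no sort label. The 95 Patch-seq libraries fall into 3 batches, and their labels repeat the protocol for sorted nuclei. The labels give no genotype, strain, age, treatment, stimulus or animal for any group, nor the promoter that drives the GFP.

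Immediate early genes are transcribed within minutes of a stimulus such as synaptic activity, from promoters acted on by calcium and kinase signals, and their transcripts are short-lived. Most of them encode transcription factors: Fos and Jun family proteins pair into the AP-1 complex, Egr1 is a zinc-finger factor, Nr4a1 an orphan nuclear receptor and Npas4 a factor induced by calcium entry in neurons. Arc encodes a protein of synapses that takes part in the removal of glutamate receptors from the membrane, and Ier2 a small nuclear protein. In brain sections several of these genes are used to mark neurons that were recently active.

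Promoter sequences are shown for 4 members, of which 3 (Fos, Fosb and Junb) were higher in Patch-seq cells than in nuclei, as described further on, and the fourth (Nr4a1) was not. Jun was also higher and had a promoter sequence, but it held none of the letters marked below and is not shown. A link between these letters and the Patch-seq levels was not tested. They come from the RefSeq promoter table of build GRCm38.p6, which matched 7 of the 10 members; Egr1, Arc and Ier2 had no entry. Each is the stretch up to 250 bases before the annotated start site, on the gene's own strand, without bases inside an annotated exon. Capitals mark the letters TGACG on either strand, the core of the cAMP response element (CGTCA where the match is on the other strand). They lie at chr12:85473640-85473889 (Fos, plus strand), chr7:19310052-19310295 (Fosb, minus strand), chr8:84978749-84978998 (Junb, minus strand) and chr15:101266596-101266845 (Nr4a1, plus strand).
Fos: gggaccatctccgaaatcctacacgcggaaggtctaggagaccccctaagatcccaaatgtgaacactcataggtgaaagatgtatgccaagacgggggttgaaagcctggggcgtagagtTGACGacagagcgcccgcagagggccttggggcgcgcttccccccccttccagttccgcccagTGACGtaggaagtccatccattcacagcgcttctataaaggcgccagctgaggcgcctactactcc
Fosb: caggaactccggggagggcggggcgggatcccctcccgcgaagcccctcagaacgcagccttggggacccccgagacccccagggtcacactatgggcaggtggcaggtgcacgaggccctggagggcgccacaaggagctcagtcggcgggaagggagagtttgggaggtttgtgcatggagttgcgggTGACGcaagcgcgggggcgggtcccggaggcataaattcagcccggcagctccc
Junb: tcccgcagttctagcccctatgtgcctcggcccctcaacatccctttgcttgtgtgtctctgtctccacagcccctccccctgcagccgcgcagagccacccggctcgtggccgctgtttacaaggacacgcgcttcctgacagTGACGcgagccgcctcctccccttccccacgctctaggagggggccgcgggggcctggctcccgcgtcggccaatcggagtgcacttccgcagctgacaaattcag
Nr4a1: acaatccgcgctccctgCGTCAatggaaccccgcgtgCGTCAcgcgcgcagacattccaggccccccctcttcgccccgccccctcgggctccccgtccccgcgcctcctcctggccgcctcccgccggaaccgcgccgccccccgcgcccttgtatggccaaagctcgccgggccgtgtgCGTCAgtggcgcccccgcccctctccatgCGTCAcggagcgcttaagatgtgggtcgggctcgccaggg
The Nr4a1 stretch lies within an intron of a longer Nr4a1 transcript of the GENCODE vM21 annotation. Searched on both strands, from 250 bases before to 50 after the start site, TGACG was present in 5 of the 7 matched members (Fos, Fosb, Junb, Npas4 and Nr4a1) and in 20.8% of 32851 RefSeq promoters. The Nr4a1 promoter held 4 matches, at bases -233, -213, -69 and -40, and that of Fos held 2, at -129 and -66. The full cAMP response element TGACGTCA (1.79% of promoters), the AP-1 site TGANTCA (7.81%), the CArG box bound by serum response factor (1.63%) and the Egr site GCGTGGGCG (0.612%) were in no member's window. The letters of the TATA box, TATAAA (13.6% of promoters), were in the window of Fos at bases -33 to -28. In that of Junb they were at bases 1 to 6, not before the start site and outside the stretch shown. TGACG is part of TGACGTCA, so these 2 searches overlap.

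By the GENCODE vM21 annotation of GRCm38, Arc lies at chr15:74669083-74672570 on the minus strand, with 3 exons and no overlapping gene. Egr1 lies at chr18:34859823-34864984 on the plus strand. Fos (chr12:85473890-85477273, plus strand) and Fosb (chr7:19302696-19310051, minus strand) are the Fos family members that the Patch-seq comparison turns on. Junb (chr8:84974484-84978718, minus strand) overlaps Prdx2, an antioxidant enzyme gene on the opposite strand, and Jun (chr4:95049034-95052222, minus strand) overlaps the antisense gene Junos. No strand setting is given in the sources used here, so reads of these overlapping genes cannot be told apart. Prdx2 was found in 84.2% of NeuN-selected GABAergic nuclei and Junb in 15.2%.

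Expression is given as TPM, a transcript level that is scaled for gene length and sums to the same total in every library. TPM keeps no read count, so the depth is unknown and the number of detected genes stands in for it. The median was 4983 detected genes in NeuN-selected and 2426 in unselected TRN nuclei, 2889 to 5082 in the other nuclei apart from 2469.5 in adjacent tissue, and 6654 in Patch-seq (highest 13164). Nuclei were sorted into classes by clustering without the 10 genes and without other activity genes, and classes are called "-like" because they were rebuilt here from markers. Sizes of all groups and classes are given with the methods. Since no animal is named, each group counts as 1 sample and no test between groups was possible. Shares of libraries with a gene above 0 TPM carry exact (Clopper-Pearson) 95% intervals that cover counting error only, and plate ranges describe a spread of unknown source. A gene was counted as higher or lower when group means, each with 1 TPM added, differed by 2-fold or more (a log2 ratio of 1), among genes with a mean of at least 1 TPM in either group and above 0 in both.

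In GABAergic neuron-like nuclei of the NeuN-selected TRN, Arc stood far above the other 9 genes. These nuclei were 80.5% of that sort, 71 to 82 on each of 8 plates. Arc was found in 75.2% of them (71.6 to 78.6%), with a mean of 315.4 TPM and a median of 246.9 TPM. The lowest plate had Arc in 69.3% of nuclei, the median plate in 74.8% and the highest in 83.3%. Nr4a1 followed at 32.2% of nuclei (28.5 to 36.1%) and 53.4 TPM, with plates from 25.3 to 38.2%. No plate of Nr4a1 came near the lowest plate of Arc. Egr1 was found in 17.5% (36.7 TPM), Npas4 in 16.3% (10.3 TPM), Junb in 15.2% (23.1 TPM), Jun in 14.2% (15.7 TPM), Fos in 10.2% (32.03 TPM), Fosl2 in 8.42% (5.19 TPM) and Ier2 in 8.25% (14.1 TPM). The plate ranges of these 7 genes overlapped; that of Fos, for example, was 5.33 to 17.8% and that of Egr1 8 to 28.1%. Fosb was the rarest, in 6 nuclei (0.99%). Where Fos was found its median was 270 TPM, so its low mean came from few nuclei with a high value.

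In the unselected TRN plates Arc was again the most frequent member. It was found in 69.7% of GABAergic nuclei (63.3 to 75.6%; 11 plates of 10 to 29 such nuclei, from 50 to 90%, median 72.2%). Nr4a1 (14.9%) and Jun (14.04%) came next, and Egr1 was found in 5.70%. All neuron-like nuclei of the NeuN-selected group (91 to 95 a plate) were compared with those of the unselected group (13 to 36 a plate). None of the 9 members tested was 2-fold higher with NeuN selection and none 2-fold lower, against 6.23% and 3.83% of all genes tested, and the members' median log2 ratio was 0.41 (all genes, 0.08). Egr1 came closest, at 45.8 TPM with NeuN selection and 22.6 TPM without it (log2 ratio 0.99). Arc had 258.6 and 272.2 TPM. Neuron-like nuclei had 4997 detected genes at the median with NeuN selection and 4373 without it; the part of depth in the Egr1 and Nr4a1 differences was not tested. Whether Egr1 passed 2-fold turned on single plates and nuclei: the log2 ratio was 1.21 without the unselected nucleus of highest Egr1. The GABAergic nuclei of the 2 sorts also fell into the clusters in different shares: a cluster led by Calb2 held 20.6% of them with NeuN selection and 6.14% (14 nuclei) without. In this cluster Egr1 had a mean of 132.7 TPM with NeuN selection but 14.5 TPM without it. The part of cluster make-up in the Egr1 difference was not tested.

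**Figure D1:**
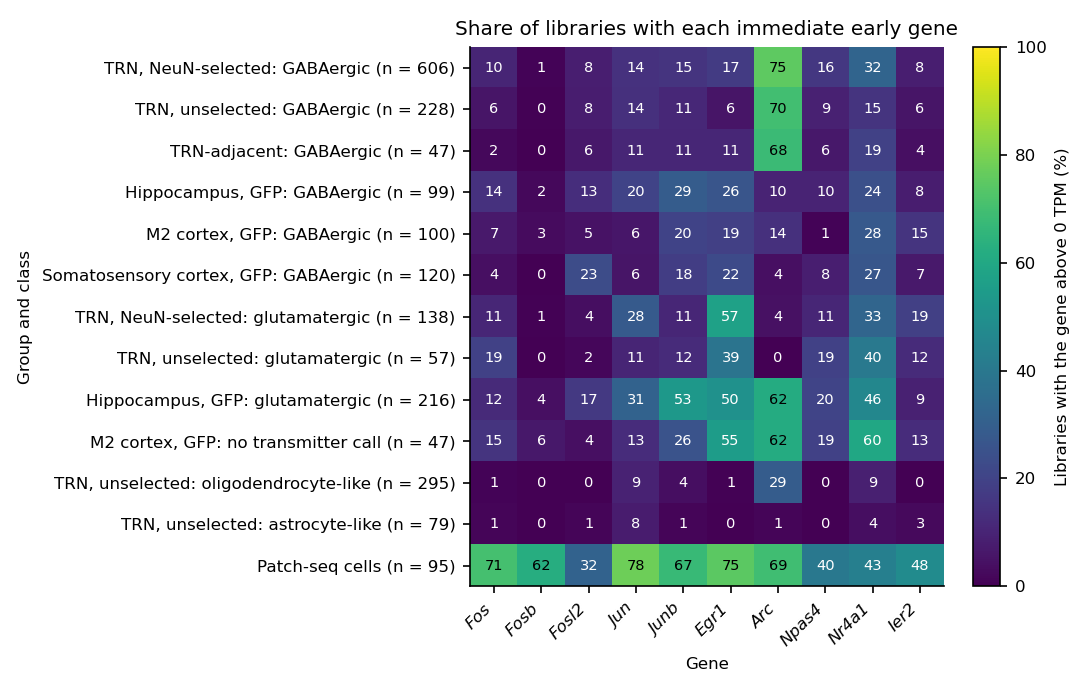
Share of libraries (colour and number, %) with each of the 10 genes above 0 TPM, by group and class (rows, n in brackets). Arc stands at 68 to 75% in the GABAergic nuclei of TRN and adjacent tissue, and the Patch-seq row is high for most genes.

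Glutamatergic neuron-like nuclei of the TRN plates, which carried thalamic relay markers such as Prkcd, showed the opposite order for Arc and Egr1. Arc was found in 6 glutamatergic nuclei (3.08%) and in 73.7% of GABAergic nuclei, with means of 7.76 and 322.8 TPM (log2 ratio 5.21). Egr1 was found in 51.8% of glutamatergic and 14.3% of GABAergic nuclei, with means of 80.9 and 29.4 TPM (log2 ratio -1.43). Fosl2, an AP-1 member, was also higher in GABAergic nuclei (4.65 against 0.177 TPM), and Ier2 was higher in glutamatergic nuclei (40.6 against 13.2 TPM). Of 9 members tested, 2 were thus higher and 2 lower in GABAergic nuclei, against 9.85% and 10.9% of all genes. The Ier2 call was lost without 1 NeuN-selected plate (13.6 against 28.01 TPM, log2 ratio -0.99). Fos, Jun, Junb, Npas4 and Nr4a1 differed by less than 2-fold, and the members' median log2 ratio was -0.21. Detected genes were similar, with medians of 4781.5 in GABAergic and 4972 in glutamatergic nuclei.

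The contrast was present within plates. On the 14 TRN plates with at least 5 nuclei of each class, Arc was more frequent in GABAergic nuclei on 14 of 14. GABAergic nuclei had Arc in 56.5% (lowest plate), 75% (median) and 90% (highest), and glutamatergic nuclei in 0, 0 and 13.3%. The 2 sets of plate shares did not overlap. Egr1 was more frequent in glutamatergic nuclei on 13 of 14 plates, with a median of 56.2% against 13.2%, and here the ranges overlapped (0 to 85.7% and 0 to 28.1%). Jun was more frequent in glutamatergic nuclei on 10 of the 14 plates and Ier2 on 11, while Fosl2 was more frequent in GABAergic nuclei on 12.

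In GFP-sorted hippocampus the Arc contrast ran the other way. By its markers this sort was mixed: 49.1% of the 440 nuclei were glutamatergic and 22.5% (99) GABAergic neuron-like. Arc was found in 61.6% of the glutamatergic nuclei (mean 464.2 TPM) and in 10.1% of the GABAergic ones (mean 23.7 TPM). On all 7 plates with both classes Arc was more frequent in the glutamatergic nuclei (39.4 to 82.1%, median 60.9%) than in the GABAergic ones (0 to 23.1%, median 8.33%). Junb was likewise more frequent in glutamatergic nuclei on 7 of 7 plates (median 62.5% against 29.4%). Egr1 was more frequent there on 5 of 7 plates. The difference between the tissues was itself not tested, as each tissue counts as 1 sample.

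**Figure D2:**
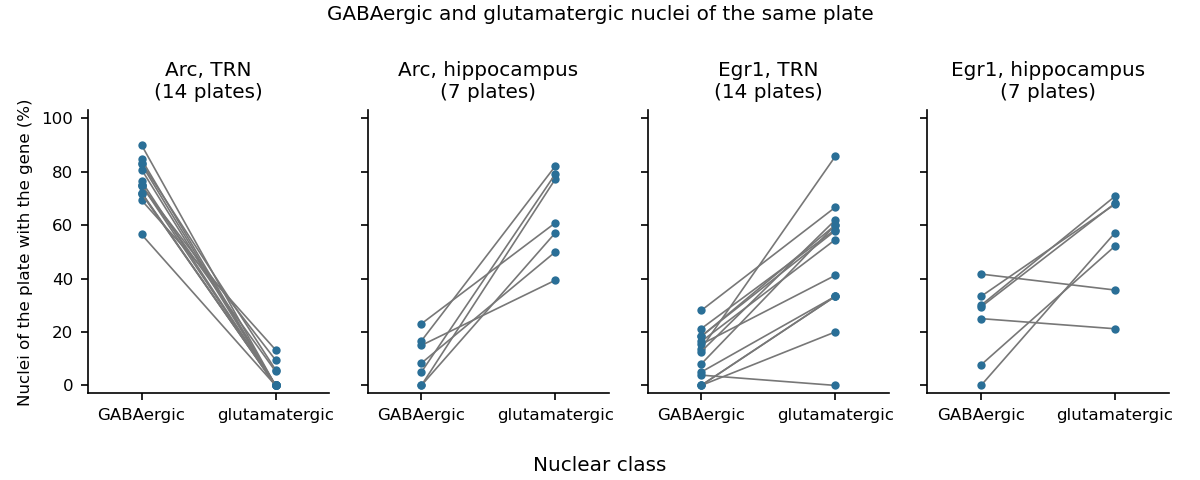
Share of nuclei with Arc or Egr1 (y axis, %) in the GABAergic and glutamatergic nuclei of the same plate, joined by a line for each plate with at least 5 nuclei of each class. Arc is more frequent in GABAergic nuclei on all 14 TRN plates and in glutamatergic nuclei on all 7 hippocampal plates.

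GABAergic neuron-like nuclei of the TRN and of the GFP-sorted regions were then set side by side, the latter as the mean of 4 region means. Arc was the 1 member that was higher in the TRN, at 322.8 against 36.8 TPM (log2 ratio 3.10), found in 73.7% and 8.85% of nuclei. The share was 10.1% in hippocampus, 14% in M2 cortex and 4.17% in somatosensory cortex. Of the 10 members tested, 1 was higher and 2 lower in the TRN, against 9.57% and 15.2% of all genes. The lower ones were Fosb (0.491 against 5.68 TPM) and Egr1 (29.4 against 77.03 TPM), and both calls rested on the striatal mean, from 14 nuclei of 1 plate. Without that plate the GFP-sorted mean was 0.856 TPM for Fosb, under the filter in both groups, and 42.1 TPM for Egr1 (log2 ratio -0.50). Arc remained higher (322.8 against 30.6 TPM, log2 ratio 3.36), and Junb (21.2 against 49.3 TPM) and Ier2 (13.2 against 36.4 TPM) were then lower. With the striatal plate included, the 7 members other than Arc, Fosb and Egr1 differed by less than 2-fold. The members' median log2 ratio was then -0.70 (all genes, -0.16).

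Between the GFP-sorted regions several differences of single members in GABAergic nuclei were lost without the striatal plate. In hippocampus against the other 3 regions, Jun (40.7 against 10.2 TPM) and Npas4 (10.1 against 4.26 TPM) were higher and Fosb, Egr1 and Nr4a1 lower, which is 2 and 3 of 10 members against 14.4% and 11.6% of all genes. Without striatum Jun was still higher (40.7 against 13.7 TPM) and Nr4a1 still lower (27.8 against 75.1 TPM). Egr1 was no longer lower (35.6 against 45.4 TPM) and Fosb was under the filter, while Ier2 was then lower (16.7 against 46.2 TPM, log2 ratio -1.41). The Npas4 call was lost without the highest hippocampal nucleus (7.69 against 4.26 TPM). In M2 cortex Ier2 was higher (67.3 against 13.9 TPM) and Fosb, Egr1 and Npas4 lower, 1 and 3 of 10 members against 9.89% and 12.8%. Without striatum Ier2 was still higher (67.3 against 20.9 TPM), Egr1 was not lower (38.8 against 43.8 TPM) and Fosb lay on the other side (1.76 against 0.402 TPM, log2 ratio 0.98). Fos and Arc were then higher and Jun lower in M2 cortex, and the members' median log2 ratio went from -0.30 to 0.29. Npas4 was found in 1 of the 100 M2 nuclei. In somatosensory cortex Junb was higher (70.4 against 25.8 TPM) and Fos (10.7 against 53.2 TPM) and Arc (20.1 against 42.4 TPM) lower, 1 and 2 of 9 members against 11.1% and 13.9%. Without striatum Fos was still lower (10.6 against 41.99 TPM), while the Junb (log2 ratio 0.84) and Arc (-0.81) calls were lost. In neuron-like nuclei of M2 cortex without a transmitter call, Arc was found in 61.7% and Nr4a1 in 59.6% of 47.

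Within the GABAergic nuclei of the NeuN-selected TRN, Arc was not uniform. The clustering gave 4 GABAergic clusters. The nuclei of the cluster led by Calb2, a calcium-binding protein gene, had Arc in 31.2% (23.2 to 40.1%). The nuclei of the other clusters, led by Avp, Cckar and Pvalb, by Ptchd1 and Kcns3, and by Gnb3 and Npy, had it in 86.7% (83.3 to 89.6%). Taken singly, in that order, these clusters had Arc in 89.5%, 93.4% and 67.4%. The Calb2-led cluster was lower on 8 of 8 plates, at 17.7 to 50% against 77.1 to 91.2%, with no overlap. Egr1 had the reverse pattern, at 45.6% against 10.2%, and was more frequent in the Calb2-led cluster on 8 of 8 plates. Fos (19.2% against 7.90%) and Nr4a1 (40.8% against 29.9%) were more frequent there on 7 of 8 plates each. Jun (21.6% against 12.3%) was more frequent there on 4 plates and less on 4. Median detected genes were 4890 in the Calb2-led cluster and 5034 in the others together (4725, 5739 and 3522 singly, in the same order). The members took no part in the clustering. In the 14 unselected TRN nuclei of the Calb2-led cluster, Egr1 was found in 7.14% and Arc in 28.6%, so the high Egr1 share was seen with NeuN selection only.

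**Figure D3:**
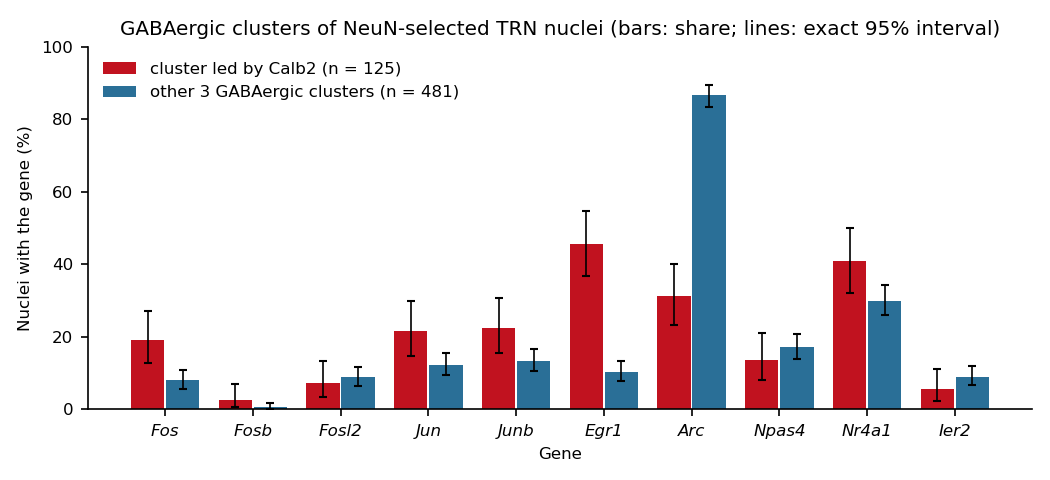
Share of NeuN-selected GABAergic TRN nuclei with each gene (bars, %; lines, exact 95% intervals for counting error) in the cluster led by Calb2 and in the other 3 GABAergic clusters. Arc is at 31.2 and 86.7% and Egr1 at 45.6 and 10.2%.

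Most of these genes were found in a smaller share of glial than of neuronal nuclei, but the means of Jun and Nr4a1 in oligodendrocyte-like nuclei and of Jun and Fosl2 in astrocyte-like nuclei were above those in neurons. In the unselected TRN plates the neuron-like nuclei were compared with oligodendrocyte-like nuclei, the myelinating glia (42.5% of this group, 13 to 39 on each of 12 plates), and with 79 astrocyte-like nuclei. Against oligodendrocytes 5 of 8 members tested were higher in neurons and none lower, against 35.1% and 15.4% of all genes; these were Ier2 (log2 ratio 3.88), Egr1 (2.48), Fos (1.97), Fosl2 (1.82) and Junb (1.46). Npas4 was found in 11.2% of the neurons and in 0% of the oligodendrocyte-like nuclei, which allows a share of up to 1.02% (3 nuclei of the total). Jun (16.7 TPM in neurons against 29.3 TPM) and Nr4a1 (30.7 against 52.7 TPM) had the higher mean in oligodendrocyte-like nuclei, by less than 2-fold. Without 1 nucleus each, Fosl2 and Ier2 were at 0 in oligodendrocyte-like nuclei. Detected genes had a median of 4373 in neuronal and 1988 in oligodendrocyte-like nuclei. Among nuclei with 2000 to 3500 detected genes, 6 members could be tested, and 2 were higher and 1 lower in neurons; the members' median log2 ratio was then 0.22, against 1.64 in all nuclei. Against astrocytes 5 of 7 members tested were higher in neurons and none lower, against 32.6% and 21.5% of all genes: Arc (4.30), Fos (4.23), Junb (4.15), Ier2 (3.54) and Nr4a1 (2.86). Egr1, Npas4 and Fosb were at 0 in all 79 astrocyte-like nuclei, and neurons had 22.6 TPM of Egr1. The astrocyte means of Arc, Fos, Junb and Fosl2 each came from 1 nucleus. Jun (16.7 TPM in neurons against 22.8 TPM) and Fosl2 (2.56 against 5.47 TPM) had the higher mean in astrocyte-like nuclei, by less than 2-fold. Among nuclei with 2000 to 3500 detected genes, 4 of 6 members were higher and 2 lower in neurons than in astrocytes. No share of all genes is given for this window in either comparison, so its counts have no background.

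Arc was found in 86 oligodendrocyte-like nuclei (29.2%, 24.03 to 34.7%), with a mean of 197.3 TPM, against 272.2 TPM in neurons (log2 ratio 0.46). Plates ranged from 10.5 to 50%, with a median of 32.4%. The share was 23.2% of 190 nuclei in one oligodendrocyte cluster and 40% in the other, smaller one. In adjacent tissue it was 32.98% of 94 nuclei. Astrocyte-like nuclei had Arc in 1 of 79 (1.27%) in the TRN plates and in 4 of 43 in adjacent tissue. Among nuclei with 2000 to 3500 detected genes Arc was in 35.5% of oligodendrocyte-like and 1.89% of astrocyte-like nuclei. Gad1, which encodes a GABA-synthesizing enzyme, was found in 14.2% of the oligodendrocyte-like and 13.9% of the astrocyte-like nuclei. Gad2 was found in 41.4% and 34.2% of the same nuclei, so by share Arc did not stand above all neuronal genes. Snap25, a neuronal gene, was found in 29.1% of the oligodendrocyte-like nuclei with Arc and in 30.1% of those without. The mean of Gad1 in oligodendrocyte-like nuclei was 3.10% of its mean in GABAergic nuclei of the same plates, that of Gad2 3.10%, that of Snap25 8.28% and that of Arc 57.6%. In astrocyte-like nuclei Arc was at 3.76% and Gad1 at 3.88%. Gad1 was found in 9.30% of the oligodendrocyte-like nuclei with Arc and in 16.3% of those without, and their median detected genes were 2047.5 and 1959. In adjacent tissue the order was the other way, with Gad1 in 19.4% of the 31 oligodendrocyte-like nuclei with Arc (7.45 to 37.5%) and in 3.17% of the 63 without (0.387 to 11%). All 86 nuclei with Arc also had Mbp, and 98.8% had Mog, both myelin genes. No doublet caller was run, and the source of Arc in the oligodendrocyte-like nuclei was not tested.

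In adjacent tissue the 47 GABAergic neuron-like nuclei had Arc in 68.1% and those of the unselected TRN plates in 69.7%, with median levels of 202.8 and 212.7 TPM. Of 9 members tested, 1 (Fosl2) was higher and 2 (Jun and Npas4) lower, against 11% and 12.5% of all genes. The members' median log2 ratio was -0.61 and depended on few nuclei: it ran from -0.90 to -0.10 when plates were left out in turn, was 0.08 among nuclei with 3000 to 6000 detected genes, and turned to 1.38 with a coarser clustering (resolution 0.5) and to 0.18 when the members were used in it. The Fosl2 call turned to lower (0.844 against 3.21 TPM) without 1 adjacent nucleus, and the Npas4 call was lost without the highest nucleus of the TRN plates (2.39 against 5.60 TPM). The 18 striatal projection neuron-like nuclei of the adjacent plates had Egr1 in 88.9% (mean 524.5 TPM) and Arc in 22.2%.

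Patch-seq cells had most of these genes at higher levels than TRN nuclei. Fos was found in 70.5% of the 95 libraries (60.3 to 79.4%; mean 158.05 TPM, median 74.99 TPM, highest 1364 TPM) against 10.2% of NeuN-selected GABAergic nuclei (mean 32.03 TPM, median 0; log2 ratio 2.27). Fosb had the highest log2 ratio of means (4.94; 50.5 and 0.675 TPM) and was found in 62.1% against 0.99%, a gap in shares like that of Jun. Jun was found in 77.9% (140 against 15.7 TPM), Junb in 67.4% (244.8 against 23.1 TPM), Egr1 in 74.7% (166.4 against 36.7 TPM), Ier2 in 48.4% (66.2 against 14.1 TPM) and Npas4 in 40% (26.1 against 10.3 TPM). Thus 7 of 10 members were higher, against 8.14% of all genes, and 1 was lower, against 29.5%. Without the batch of 34 libraries the Npas4 call was lost (15.6 against 10.3 TPM). The lower one was Nr4a1, with 20.1 against 53.4 TPM (log2 ratio -1.37), although it was found in 43.2% of Patch-seq libraries and 32.2% of nuclei. Arc was found in 69.5% of libraries and 75.2% of nuclei, with means of 185.1 and 315.4 TPM (log2 ratio -0.77), a difference of less than 2-fold, and Fosl2 also differed by less (8.98 and 5.19 TPM). The members' median log2 ratio was 2.15 and that of all genes -0.60. The highest Junb library had 6041 TPM, and the median library 56.4 TPM against 0 in nuclei.

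These libraries had more detected genes (median 6654 against 4974.5 in the nuclei), and many carried transcripts of microglial and myelin genes. Among libraries with 3000 to 6000 detected genes (23 Patch-seq libraries, and nuclei of the same window), 5 members were higher and 3 lower, with a median log2 ratio of 1.14. In 36 of the 95 libraries at least 3 of 8 listed microglial markers reached 10 TPM, against 1 of the nuclei; their summed level ran from 0 to 18300 TPM in Patch-seq (median 40.2) and from 0 to 740 TPM in the nuclei (median 0). Without these 36 libraries 7 members were still higher and 1 lower, with a median log2 ratio of 1.86. The shares of all genes given above are for the full set, so these counts and those of the window have no background of their own. Fos was then found in 76.3% of 59 libraries, Fosb in 55.9%, Egr1 in 62.7% and Ier2 in 37.3%. Egr1 was found in 94.4% and Ier2 in 66.7% of the 36 libraries with these markers. The myelin gene Mbp was found in 94 of 95 Patch-seq libraries (mean 4410 TPM) and in 23.3% of the nuclei (mean 181.9 TPM); its part in the result was not tested. Patch-seq and sorted nuclei also differ in collection and in the RNA they hold, which cannot be told apart from cell state here.

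**Figure D4:**
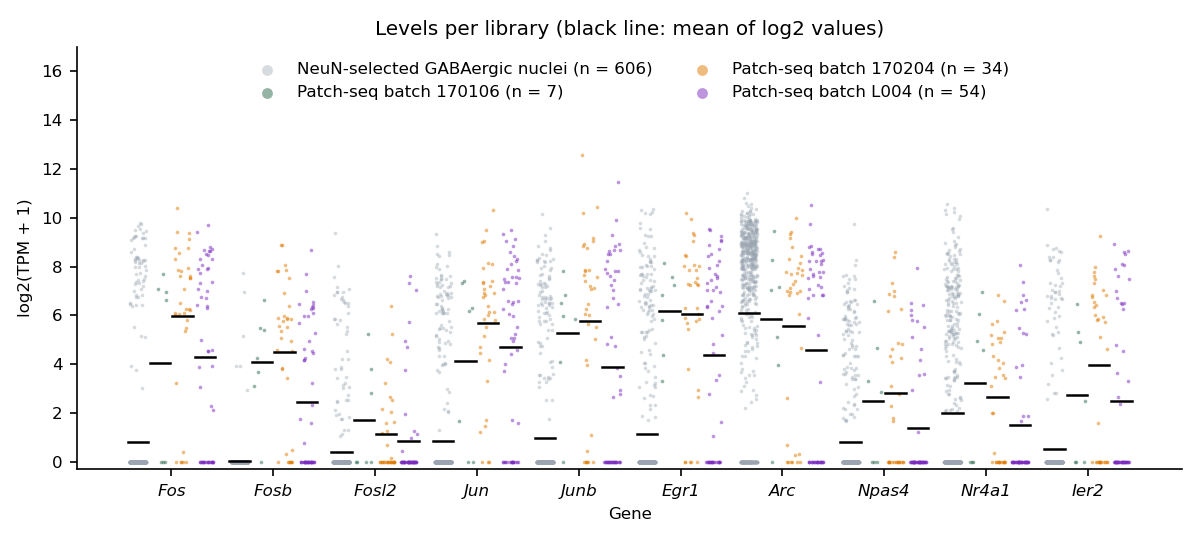
Level of each gene, as log2(TPM + 1) on the y axis, in NeuN-selected GABAergic TRN nuclei (grey) and in Patch-seq libraries by batch (colours); each point is a library and each black line the mean of the log2 values. Fosb is at 0 in nearly all nuclei and above 0 in 62.1% of Patch-seq libraries, whereas Arc is high in both.

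The batch of 34 libraries (median 9107.5 detected genes) had every member more often than batch L004 (54 libraries, 5548.5 detected genes). Fos was found in 85.3% and 62.96%, Fosb in 79.4% and 48.2%, Jun in 91.2% and 70.4%, Arc in 82.4% and 59.3% and Nr4a1 in 61.8% and 29.6%. By mean TPM none of 10 members was higher in L004 and 3 were lower, against 14.5% and 12.4% of all genes: Npas4 (15.1 against 44.96 TPM), Fosb (31.1 against 85.3 TPM) and Junb (176.1 against 387.8 TPM). The Junb call rested on 1 library; without it the batch of 34 had a mean of 216.5 TPM (log2 ratio -0.30). The smallest batch held 7 libraries. In each of the 2 larger batches Fos, Fosb, Jun, Junb and Egr1 were found more often than in the GABAergic nuclei of any NeuN-selected plate.

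Other activity genes were taken from lists outside the 10 members. Of 24 other activity-induced genes tested, 13 were higher and 1 lower in Patch-seq (median log2 ratio 1.02), led by Atf3 (66.97 against 0.0159 TPM), a stress-induced relative of the AP-1 factors, Zfp36 (34.7 against 2.86 TPM), which promotes decay of short-lived transcripts, and Trib1 (13.5 against 2.06 TPM). The lower one was Homer1 (16.9 against 50.9 TPM), a scaffold of the postsynapse. Of 7 late activity genes, 1 (Vgf) was higher and 2 (Pcsk1 and Scg2) lower, and 1 of 9 heat shock and stress genes was higher and 3 lower, against the 8.14% and 29.5% of all genes given above. In GABAergic against glutamatergic TRN nuclei, 3 of 19 other activity-induced genes were higher, among them the kinase genes Sik1 and Plk2, and 6 lower, led by Dusp6 (7.76 against 65.4 TPM), a phosphatase acting on ERK, against 9.85% and 10.9% of all genes.

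Co-occurrence within libraries was described by Spearman's rho between 2 genes, computed within each plate or batch and averaged. The values have no p, because nuclei of a plate share their source and differ in detected genes. In data this sparse a low rho carries little information. Over the 45 pairs of members the median was 0.025 in NeuN-selected neuron-like nuclei (8 plates; -0.0249 to 0.0954 on single plates), 0.036 in the GABAergic ones alone, 0.218 in hippocampal glutamatergic nuclei (7 plates) and 0.357 in 88 Patch-seq libraries (2 batches). The 45 pairs were all above 0 in Patch-seq, 41 in hippocampal glutamatergic nuclei and 29 in NeuN-selected neurons. Taking detected genes into account left 0.201 in the hippocampal nuclei and lowered the Patch-seq median to 0.222. The number of the 9 members other than Arc found in a library correlated with detected genes at 0.778 in Patch-seq, 0.459 in hippocampal glutamatergic nuclei and 0.182 in NeuN-selected neurons.

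**Figure D5:**
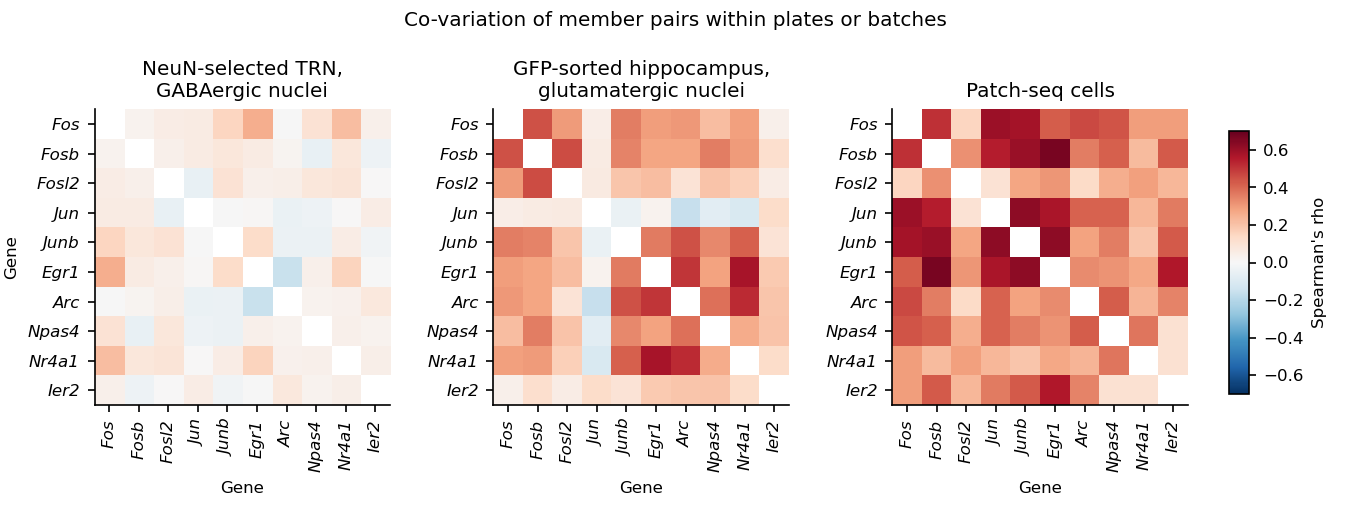
Spearman's rho (colour, from -0.7 to 0.7) for each pair of the 10 genes, averaged over plates or batches, in NeuN-selected GABAergic TRN nuclei, hippocampal glutamatergic nuclei and Patch-seq cells. The medians are 0.036, 0.218 and 0.357.

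In GABAergic TRN nuclei with NeuN selection, every other member was more frequent where Fos was found. For 4 of them (Egr1, Nr4a1, Junb and Npas4) the exact intervals with and without Fos did not overlap. For Npas4 they nearly met (18.2 to 41.95% and 12 to 18.16%). No share of all genes is given for this split, so the count has no background. Among 62 nuclei with Fos, Egr1 was found in 43.6% (30.99 to 56.7%), Nr4a1 in 56.5%, Junb in 33.9% and Npas4 in 29.03%. Among those without Fos the shares were 14.5% (11.7 to 17.8%), 29.4%, 13.1% and 14.9%. Arc was at 80.7% and 74.6%, and the median detected genes were 5106.5 and 4954.5. The Calb2-led cluster held 24 of the 62. Within it Egr1 was found in 79.2% of nuclei with Fos (57.9 to 92.9%) and 37.6% without, Nr4a1 in 83.3% and 30.7%, and Arc in 62.5% (40.6 to 81.2%) and 23.8%. In the other GABAergic clusters these shares were 21.1% and 9.26% for Egr1, 39.5% and 29.1% for Nr4a1 and 92.1% and 86.2% for Arc. In 15 glutamatergic TRN nuclei with Fos, Egr1 was at 60% against 56.9% without it, and Jun at 6.67% against 30.9%. In hippocampal glutamatergic nuclei Arc was found in 96.2% of 26 nuclei with Fos and in 56.8% of 190 without, and Junb in 92.3% and 47.9%. In Patch-seq, Npas4 was found in 56.7% of 67 libraries with Fos and in 0 of 28 without, whose median detected genes were 7894 and 2990.

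Few TRN nuclei held several members at once. At least 4 of the 9 members other than Arc were found in 28 NeuN-selected GABAergic nuclei (4.62%), in 26.9% of hippocampal glutamatergic nuclei and in 67.4% of Patch-seq libraries. In GFP-sorted GABAergic nuclei the share was 7.07% in hippocampus, 1% in M2 cortex and 4.17% in somatosensory cortex, so the TRN value lay within their range. Among libraries with 3000 to 6000 detected genes the shares were 4.58% in the TRN nuclei and 43.5% (10 of 23) in Patch-seq. Arc was found in 69.9% of TRN GABAergic nuclei with none of the other 9 members and in 75% of those with 4 or more. Within the Calb2-led cluster these shares were 14.3% (4 of 28 nuclei) and 66.7% (12 of 18), and in the other GABAergic clusters 79.8% and 90%.

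The genes whose level was most like that of each member over the NeuN-selected neuron-like nuclei, among 11198 genes found in at least 10% of them, differed between Arc and Fos. For Arc they were Gad1 (0.559), AI593442 (0.536) and Six3 (0.525), and Fos ranked 6841st. For Egr1 the first was Arpp21 (0.447), and Arc ranked 11169th (-0.289). These nuclei span GABAergic and glutamatergic classes, so class differences enter these values. In the GABAergic nuclei alone the nearest to Arc were Adcy1 (0.41), Inpp5j (0.40) and AI593442 (0.387), and Arpp21 was still the first for Egr1 (0.391). Over all neuron-like nuclei the nearest to Fos were Nr4a1 (0.202), Dlk2 (0.198) and Egr1 (0.194), and in GABAergic nuclei alone Egr1 (0.255), Dlk2 (0.229) and Gng4 (0.223). For Jun they were Stmn4, Rhob and Tnnt1 over all neuron-like nuclei, at no more than 0.214 (in GABAergic nuclei alone Hapln2, Pllp and Gatm, at no more than 0.227). For Junb, Fosb, Fosl2 and Npas4 no gene exceeded 0.20 over all neuron-like nuclei. In GABAergic nuclei alone Fosb reached 0.226 (Nbeal2) and Npas4 0.203 (Wdr25).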

How the data were processed

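By the labels' protocols, nuclei from a sucrose gradient were sorted by FACS and sequenced singly with an adapted Smart-seq2 method, which gives no molecular identifiers. The submitters' processing notes name Seurat 2.2.0, TopHat2 2.0.10, Bowtie and RSEM, with mm10 as the build. The authors deposited TPM for the nuclei outside the TRN (871 columns) and for Patch-seq (95 columns). The TRN table (1687 columns) was deposited by the authors as ln(1 + s × TPM), a natural log in which s differs between nuclei. This form was read from the values: with the logarithm undone and column sums set to 1000000, 100% of the values under 2 TPM lay within 0.1 steps of a multiple of 0.01. The planned analysis had taken this table for TPM, and the recovered TPM were used in its place. The 994 samples without values were not analysed here.

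Values were present for 753 NeuN-selected TRN nuclei (606 GABAergic and 138 glutamatergic neuron-like), 694 unselected TRN nuclei (228 GABAergic, 57 glutamatergic, 295 oligodendrocyte-like and 79 astrocyte-like), 240 adjacent nuclei, 440 GFP-sorted hippocampal nuclei (99 GABAergic and 216 glutamatergic), 168 M2 nuclei (100 GABAergic), 149 somatosensory nuclei (120 GABAergic), 71 striatal nuclei (14 GABAergic) and 43 hippocampal nuclei without a sort label. All neuron-like nuclei numbered 745 with NeuN selection and 287 without. The Calb2-led cluster held 125 of the NeuN-selected GABAergic nuclei and the other GABAergic clusters 481.

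The members and all gene lists were chosen with earlier results of these data known. All 10 members are named; of the other activity lists, the 3 genes furthest above and below a log2 ratio of 0 were nameable if past 1; and for each member, the 3 genes of highest mean within-plate rho. Some genes that this rule names are not reported here. Classes came from Leiden clustering (resolution 1, leidenalg 0.10.2, igraph 0.11.9) of each table of nuclei, leaving out the members and other activity genes. A neuron-like cluster needed 4 of 7 neuronal markers in at least 50% of its nuclei, a threshold set after the markers were seen. No doublet caller was run, and clusters with mixed markers stayed unnamed. Group means, shares, exact binomial intervals and rank correlations were computed with scipy 1.17.1, scikit-learn 1.9.0, numpy 2.4.6 and pandas 2.3.3 under Python 3.11.15, and the code was tested on simulated data. No p-value was computed, because no animal is named. Plate values are given for plates with at least 10 nuclei of the class. A gene at 0 in every nucleus of a group got no ratio. Alternatives were other pseudocounts (0.1 and 10 TPM), no filter on low values, mean log2 values, the deposited TRN scaling, other clusterings, windows of detected genes, leaving out each plate or batch, and leaving out libraries with microglial markers. Calls of single members without single plates or without the highest library of either group, and shares with Fos within clusters, were added after seeing the data.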

Additional observations from a re-analysis of the deposited data

Results flagged for a closer look

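Arc ran in opposite directions in 2 tissues: it was more frequent in GABAergic than in glutamatergic nuclei on all 14 TRN plates and less frequent on all 7 hippocampal plates, where the median GABAergic share was 8.33%. The difference between the tissues was not tested. Of 50 sets of plate shares, 6 had a plate far from the others; chance gives about 1 in 20. Junb was found in 4.40% of neuron-like nuclei on 1 NeuN-selected plate and in 12.6 to 20% on the other 7. Jun was found in 26.8% of GABAergic nuclei on another NeuN-selected plate (others, 7.04 to 15.1%), and Ier2 in 13.2% on a further one (others, 5.63 to 8.97%). In adjacent tissue 1 plate had Fos in 22.2% of neuron-like nuclei (others, 0 to 3.45%) and Arc in 3.70% (others, 50 to 55.6%). Of its 27 neuron-like nuclei, 26 were glutamatergic, so its class make-up differs from that of the other plates. In GFP-sorted hippocampus the plate shared with the nuclei without a sort label had Fosb in 19.2% of 26 neuron-like nuclei (others, 0 to 5%).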

How the results depend on the processing

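Median log2 ratios of the members were recomputed under each alternative. Neurons against oligodendrocytes (1.64) gave 0.638 with 10 TPM added, 0.524 with mean log2 values, 0.22 at 2000 to 3500 detected genes (chosen after seeing the data) and -0.38 at 3000 to 6000, where 7 oligodendrocyte-like nuclei and 2 testable members were left. Neurons against astrocytes (3.54) gave 4.39 with 0.1 TPM added, 1.51 with 10 TPM, 0.512 with mean log2 values and 2.71 at 2000 to 3500 detected genes. Adjacent against unselected TRN (-0.605) gave 0.062 with mean log2 values, 1.38 and -0.322 at Leiden resolutions 0.5 and 2, 0.181 when clustered with the members, 0.0753 at 3000 to 6000 detected genes, and -0.899 to -0.0971 without single plates. Without single plates, M2 cortex (-0.296) ran from -0.646 to 0.291 and somatosensory cortex (-0.155) from -0.367 to -0.00877. Patch-seq against nuclei (2.15) gave 1.79 with 10 TPM added, 2.87 with mean log2 values and 1.14 at 3000 to 6000 detected genes. Batch L004 against the batch of 34 libraries (-0.467) gave -0.471 and -0.442 with 0.1 and 10 TPM added and -1.45 with mean log2 values. The Patch-seq median rho (0.357) was 0.222 given detected genes and 0.439 without libraries with microglial markers. The cause of these shifts was not tested, apart from the fewer members and nuclei in the windows. Of all alternative values of these summaries 89.2% kept within the plate spread. The hippocampal median (-0.541) went to -1.51 at 3000 to 6000 detected genes. No paired analysis was possible because no test was run and replicate numbers only name single nuclei; classes and clusters were set side by side within plates instead. Depth is unknown for TPM, so a gene at 0 in a nucleus may have been missed.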

Other observations

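The 33 unselected TRN nuclei of the unnamed cluster, whose leading genes include Pdgfra of oligodendrocyte precursors and Cx3cr1 of microglia, had Jun at a mean of 307.3 TPM (18.2% of nuclei) and Ier2 at 240.8 TPM (12.1%), while Fos, Fosb, Fosl2, Arc and Npas4 were at 0 in all 33. These Jun and Ier2 means rest on 6 and 4 nuclei.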
